A study of Homo sapiens with 8 samples.

Results

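The genes described here are the 5 Rel and NF-kB subunits (NFKB1, NFKB2, REL, RELA and RELB), 4 members of the IkB family (NFKBIA, NFKBIB, NFKBIE and NFKBIZ) and TNFAIP3, which encodes the enzyme A20. They were chosen by name, with earlier results of these data known, and make up 10 of the 36715 genes in the count table. All 10 had reads, and all 10 passed the filter on low counts, which kept 14850 genes. They were measured by RNA-seq in MDA-MB-231, an established human triple-negative breast cancer line, meaning one that lacks the oestrogen and progesterone receptors and HER2 amplification. The 4 groups were cells given EMD37 at 0.5 µM for 12 h, cells given the vehicle DMSO for 12 h, cells given EMD37 at 0.5 µM for 24 h, and cells given DMSO for 24 h, each with 2 libraries marked A and B. The series title links EMD37 to stress of the endoplasmic reticulum (ER), and the comparisons ask how the level of each RNA differed between drug and vehicle and between the 2 times. All groups are the same line grown in serum-containing medium, and the labels did not say whether A and B were separate cultures, and p-values therefore speak only to the spread of these libraries, which may be technical. In bulk RNA a change in every cell and a change in some of the cells cannot be told apart.

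NF-kB proteins bind DNA as dimers of subunits that share the Rel homology domain. In resting cells IkB proteins hold most dimers in the cytoplasm; the IKK kinases mark IkB for destruction in the canonical route, and in the non-canonical route the NFKB2 precursor is processed and its product pairs with RELB. Several NF-kB target genes encode brakes on the same pathway: NFKBIA and TNFAIP3 are the textbook examples, and NFKB2 and RELB are themselves known targets. Triple-negative lines, MDA-MB-231 among them, are known for NF-kB activity without added ligand.

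RefSeq promoter windows, which run from 250 bases before a transcript's start to 50 bases after it on GRCh38.p14, were found for 8 of the 10 genes, and RELB and NFKBIE had none in the table used. The 10-base kB consensus was searched on both strands, with overlapping matches counted as 1 place. It occurred in at least 1 window of 7 of these 8 genes, every one but RELA, while 13.3% of the 27305 genes with windows held it. Counted by window, 9 of 14 windows of the members held it, against 11.3% of all 35116 windows. These are matches of letters and not measured binding sites. The stretches below show 1 or 2 examples for each gene, as these are the genes whose RNA is compared; 4 further places, 2 in NFKB2 and 1 each in NFKBIZ and NFKBIB, are not printed. Each stretch is 5′ to 3′ on the gene's strand, and the kB places are in capitals.
TNFAIP3 (chr6:137867188-137867217, plus strand): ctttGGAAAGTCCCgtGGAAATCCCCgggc
NFKB2 (chr10:102394461-102394490, plus strand): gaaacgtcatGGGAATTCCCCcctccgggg
NFKB2 (chr10:102395674-102395703, plus strand): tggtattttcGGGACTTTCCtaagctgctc
NFKB1 (chr4:102501300-102501329, plus strand): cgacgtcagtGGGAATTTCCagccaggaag
REL (chr2:60881517-60881546, plus strand): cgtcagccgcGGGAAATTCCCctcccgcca
NFKBIB (chr19:38899931-38899960, plus strand): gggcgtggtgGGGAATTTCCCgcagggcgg
NFKBIZ (chr3:101827757-101827786, plus strand): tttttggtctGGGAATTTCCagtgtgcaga

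TNFAIP3 held a pair of places 2 bases apart, beginning 67 and 55 bases before the RefSeq start, inside its first exon in the GENCODE annotation. Only 0.994% of all windows held 2 or more places; the TNFAIP3 window was one, as were both NFKB2 windows shown and the NFKBIB window. In NFKBIA the single place began 81 bases before the start. Its 250 bases upstream are shown in full because NFKBIA, with TNFAIP3, had the largest changes among the 10 genes at 24 h.
NFKBIA (chr14:35404750-35404999, minus strand): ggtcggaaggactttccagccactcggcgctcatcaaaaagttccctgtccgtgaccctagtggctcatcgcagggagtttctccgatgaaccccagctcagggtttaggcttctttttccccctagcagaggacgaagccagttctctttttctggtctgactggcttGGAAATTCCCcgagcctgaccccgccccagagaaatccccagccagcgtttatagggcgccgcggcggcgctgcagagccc

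**Figure D1:**
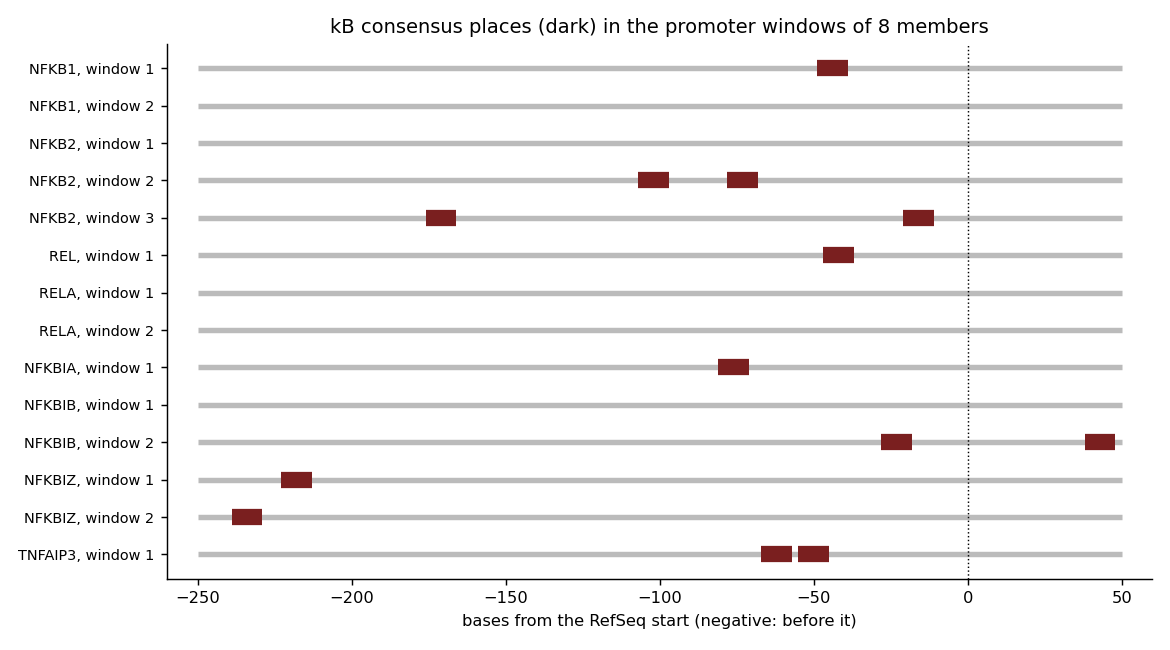
Places matching the kB consensus (dark boxes) in the 14 RefSeq promoter windows of 8 of the 10 genes, against distance in bases from the RefSeq start (negative values lie before it). Of the 14 windows, 9 hold a place, and both RELA windows hold none.

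The count table held 8.995 M to 11.44 M reads per library (M, mega), and replicates correlated at 0.986 to 0.989 on the log2 CPM scale, where CPM is a gene's reads divided by the TMM-scaled library size in M. Replicates differed by more than counting noise in every group, most in vehicle at 24 h. Among markers of the line, VIM, CD44, AXL, CAV1 and MSN averaged 1107 to 1555 CPM and CD274 58.4 CPM, while SPARC, on the same list, averaged 0.822 CPM. ESR1, PGR, ERBB2 and GATA3 averaged 1.41 to 4.01 CPM, and EPCAM and CDH1 had at most 3 and 2 reads in any library. The 7 leukocyte markers summed to 0.965 to 2.43 CPM in EMD37 at 24 h and 1.94 to 2.69 CPM in vehicle at 24 h, with LYZ at 0 reads throughout, so the defining markers of that cell type were at or near 0. The 7 markers of the line summed to 5692 to 5963 CPM in EMD37 at 24 h and 6990 to 7449 CPM in vehicle at 24 h. Of these 7, 4 were called lower at 24 h by edgeR, where 21.1% of all tested genes were called lower. The 5 fibroblast markers summed to 3.88 to 5.16 CPM in EMD37 and 2.24 to 3.25 CPM in vehicle at 12 h, and to 3.70 to 5.12 CPM in EMD37 and 3.15 to 3.88 CPM in vehicle at 24 h; 0 of the 2 tested were called by edgeR, and their part in the results was not tested.

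At 24 h the RNA of all 10 genes was called higher in EMD37, TNFAIP3 10.0-fold, NFKBIA 6.73-fold, RELB 3.64-fold, NFKB2 2.85-fold and NFKBIB 2.71-fold. NFKB1, RELA, REL, NFKBIE and NFKBIZ were 1.17-fold to 1.68-fold higher, and of these only RELA was called in every alternative run. At 12 h 5 of the 10 genes were called higher, REL, RELB, NFKBIB, NFKBIZ and TNFAIP3, by 1.37-fold to 2.02-fold. Of these only RELB and NFKBIB were called in every alternative run. At both times both EMD37 libraries lay above both vehicle libraries for each of the 10 genes. Calls were made at an adjusted p below 0.05 in edgeR's quasi-likelihood test, adjusted over all tested genes by Benjamini-Hochberg. Over all tested genes 5.27% were called higher and 3.43% lower at 12 h, and 19.6% higher and 21.1% lower at 24 h. Both drug libraries lay above both vehicle libraries in 26.5% of tested genes at 12 h and in 31.4% at 24 h. The median log2 fold change of the 10 genes was 0.59 at 12 h and 1.09 at 24 h, beside −0.01 and −0.03 over all tested genes.

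**Figure D2:**
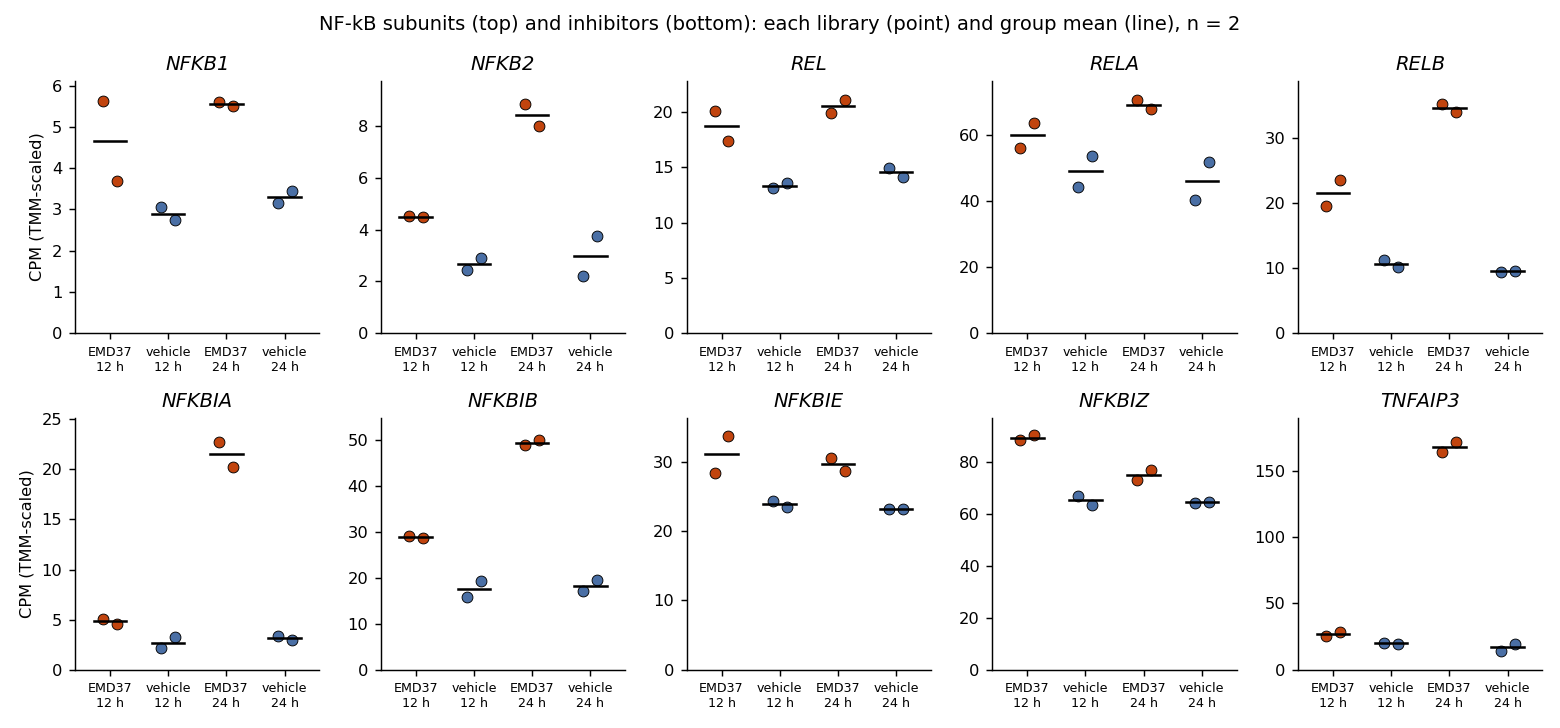
CPM of each library (points) and group mean (line, n = 2) for the 5 subunits (top row) and the 5 inhibitors (bottom row), with EMD37 in orange left of its vehicle in blue at 12 h and at 24 h; each panel has its own axis from 0. In every panel both EMD37 points lie above both vehicle points of the same time, and TNFAIP3 at 24 h reaches 164 and 171 CPM in EMD37 against 14.3 and 19.5 CPM in vehicle.

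RELA encodes the main transactivating subunit of the canonical dimer (ENSG00000173039, chromosome 11, 65653596 to 65663094, minus strand; gene positions are from GENCODE 29 on hg38). At 12 h it had 55.9 and 63.8 CPM in EMD37 and 44.3 and 53.6 CPM in vehicle. At 24 h it had 70.5 and 67.8 CPM in EMD37 and 40.3 and 51.7 CPM in vehicle. The groups were separate at each time, but the lower drug library at 12 h stood only a little above the higher vehicle library. The log2 fold change was 0.29 at 12 h (standard error 0.12, edgeR adjusted p = 0.180), which was not called, and 0.59 at 24 h (standard error 0.12, edgeR adjusted p = 0.00115).

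RELB encodes the partner of the processed NFKB2 protein in the non-canonical route (ENSG00000104856, chromosome 19, 45001430 to 45038198, plus strand). It had 19.5 and 23.6 CPM in EMD37 and 11.2 and 10.2 CPM in vehicle at 12 h. At 24 h it had 35.3 and 34.0 CPM in EMD37 and 9.44 and 9.59 CPM in vehicle. The drug libraries stood apart from vehicle at both times, and further apart at 24 h. RELB rose by log2 1.01 at 12 h (standard error 0.15, edgeR adjusted p = 0.000240) and by 1.86 at 24 h (standard error 0.15, edgeR adjusted p = 5.24e-08), the largest change of the 5 subunits at each time. Only 2.09% of tested genes had a larger log2 fold change at 24 h.

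REL encodes c-Rel, a transactivating subunit best known in lymphocytes (ENSG00000162924, chromosome 2, 60881521 to 60931610, plus strand). It had 20.1 and 17.4 CPM in EMD37 and 13.1 and 13.6 CPM in vehicle at 12 h, and 19.96 and 21.1 CPM in EMD37 and 14.99 and 14.1 CPM in vehicle at 24 h. The 4 drug libraries lay close together and above the 4 vehicle libraries. REL rose by log2 0.49 at 12 h (standard error 0.15, edgeR adjusted p = 0.0463) and by 0.50 at 24 h (standard error 0.14, edgeR adjusted p = 0.0113). Of its exonic bases 43.3% also lie in the overlapping noncoding gene AC010733.2, so its reads cannot be assigned to REL alone. AC010733.2 had no entry of its own among the counts or normalized values used here.

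NFKB1 and NFKB2 encode precursors that are cut to DNA-binding subunits without a transactivation domain of their own. NFKB2 (ENSG00000077150, chromosome 10, 102394110 to 102402529, plus strand) had 4.52 and 4.48 CPM in EMD37 and 2.44 and 2.91 CPM in vehicle at 12 h. At 24 h it had 8.87 and 8.01 CPM in EMD37 and 2.22 and 3.77 CPM in vehicle. The groups did not overlap at either time, and the 2 vehicle libraries at 24 h were unlike each other. The log2 fold change was 0.74 at 12 h (standard error 0.28, edgeR adjusted p = 0.120), not called, and 1.51 at 24 h (standard error 0.26, edgeR adjusted p = 0.000184).

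NFKB1 (ENSG00000109320, chromosome 4, 102501329 to 102617302, plus strand) had 5.62 and 3.68 CPM in EMD37 and 3.05 and 2.74 CPM in vehicle at 12 h, and 5.596 and 5.50 CPM in EMD37 and 3.15 and 3.45 CPM in vehicle at 24 h. The 2 drug libraries at 12 h differed from each other by more than the lower one differed from vehicle. The log2 fold change was 0.69 at 12 h (standard error 0.27, edgeR adjusted p = 0.133), not called, and 0.75 at 24 h (standard error 0.26, edgeR adjusted p = 0.0305). These values rest on 30 to 61 reads per library for NFKB1 and 24 to 84 for NFKB2. The usually abundant genes ACTB and B2M also had few reads, at 8.09 and 19.998 CPM, while ACTG1 had 4671 CPM and GAPDH 2474 CPM; no source used here gave a reason.

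NFKBIA encodes IkB-alpha, the inhibitor that NF-kB itself induces and that exports dimers from the nucleus (ENSG00000100906, chromosome 14, 35401511 to 35404749, minus strand). It had 5.07 and 4.58 CPM in EMD37 and 2.13 and 3.25 CPM in vehicle at 12 h. At 24 h it had 22.7 and 20.3 CPM in EMD37 and 3.33 and 3.02 CPM in vehicle. The drug libraries at 12 h stood slightly above vehicle, and those at 24 h stood far above every other library. The log2 fold change was 0.82 at 12 h (standard error 0.25, edgeR adjusted p = 0.0550), just short of a call, and 2.75 at 24 h (standard error 0.21, edgeR adjusted p = 3.48e-08). NFKBIA had 21 to 55 reads in every library but the 2 of EMD37 at 24 h, which had 215 and 210, and its promoter stretch is printed above.

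TNFAIP3 encodes A20, a ubiquitin-editing enzyme that ends signalling upstream of IKK (ENSG00000118503, chromosome 6, 137867188 to 137883312, plus strand). It had 25.7 and 28.7 CPM in EMD37 and 20.2 and 19.6 CPM in vehicle at 12 h. At 24 h it had 164 and 171 CPM in EMD37 and 14.3 and 19.5 CPM in vehicle. The drug libraries were narrowly above vehicle at 12 h and in a range of their own at 24 h. TNFAIP3 rose by log2 0.45 at 12 h (standard error 0.13, edgeR adjusted p = 0.0411) and by 3.32 at 24 h (standard error 0.12, edgeR adjusted p = 4.79e-12). It ranked 62 of 14850 tested genes by log2 fold change at 24 h and 1707 at 12 h. An antisense gene, AL357060.1, shares 1.88% of its exonic bases and had 15 to 79 reads per library, beside 154 to 1774 for TNFAIP3; the kit does not mark strand, so reads in the shared bases cannot be told apart.

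NFKBIB encodes IkB-beta, an inhibitor that is degraded more slowly than IkB-alpha (ENSG00000104825, chromosome 19, 38899700 to 38908893, plus strand). It had 29.2 and 28.7 CPM in EMD37 and 15.9 and 19.4 CPM in vehicle at 12 h, and 48.9 and 50.1 CPM in EMD37 and 17.1 and 19.5 CPM in vehicle at 24 h. The 3 levels (vehicle, drug at 12 h, drug at 24 h) were separate, with little spread inside each drug group. NFKBIB rose by log2 0.71 at 12 h (standard error 0.13, edgeR adjusted p = 0.00216) and by 1.44 at 24 h (standard error 0.13, edgeR adjusted p = 2.09e-07). SIRT2, on the other strand, shares 1.72% of its exonic bases.

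NFKBIE encodes IkB-epsilon, a further cytoplasmic inhibitor (ENSG00000146232, chromosome 6, 44258166 to 44265788, minus strand). It had 28.4 and 33.7 CPM in EMD37 and 24.3 and 23.4 CPM in vehicle at 12 h, and 30.5 and 28.7 CPM in EMD37 and 23.1 and 23.2 CPM in vehicle at 24 h. The drug libraries were modestly above vehicle and did not separate by time. The log2 fold change was 0.38 at 12 h (standard error 0.13, edgeR adjusted p = 0.0741), not called, and 0.35 at 24 h (standard error 0.13, edgeR adjusted p = 0.0355).

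NFKBIZ encodes IkB-zeta, a nuclear IkB protein that helps NF-kB activate a subset of targets, IL6 among them, and is not a cytoplasmic anchor (ENSG00000144802, chromosome 3, 101827991 to 101861022, plus strand). It had 88.3 and 90.2 CPM in EMD37 and 67.0 and 63.4 CPM in vehicle at 12 h, and 73.0 and 77.0 CPM in EMD37 and 64.0 and 64.7 CPM in vehicle at 24 h. Its highest libraries were those of EMD37 at 12 h, whereas those of NFKBIA, NFKBIB and TNFAIP3 were those of EMD37 at 24 h. NFKBIZ rose by log2 0.45 at 12 h (standard error 0.08, edgeR adjusted p = 0.00175) and by 0.22 at 24 h (standard error 0.08, edgeR adjusted p = 0.0455).

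**Figure D3:**
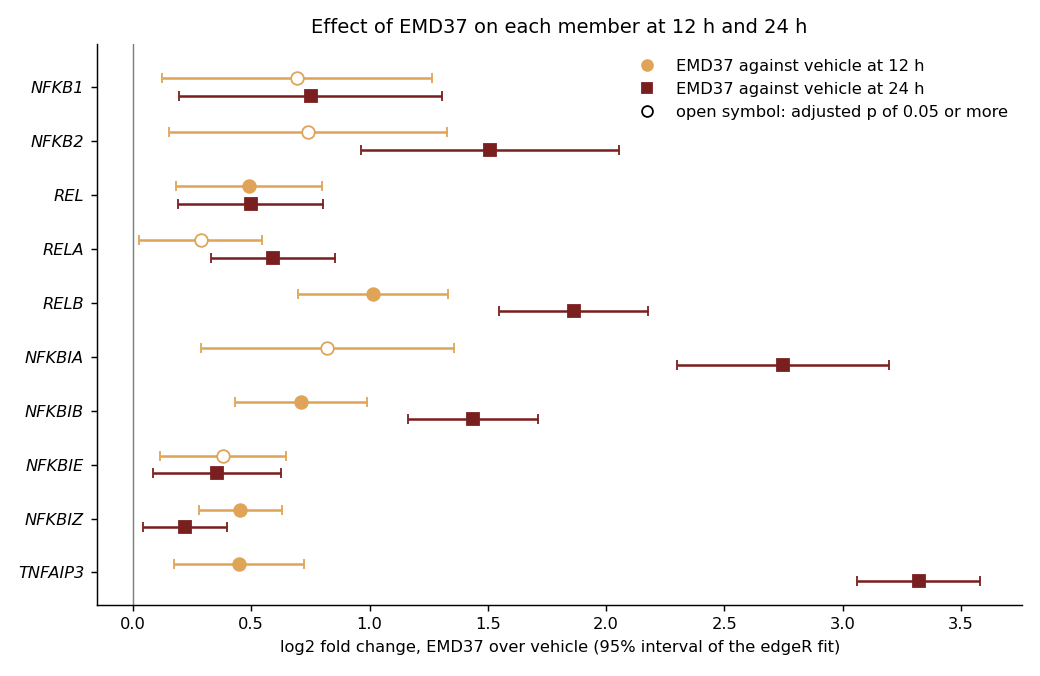
Log2 fold change of EMD37 over vehicle for each gene, at 12 h (light circles) and 24 h (dark squares), with the 95% interval of the edgeR fit; open symbols have an adjusted p of 0.05 or more. All 20 estimates lie above 0, and the 12 h and 24 h intervals are furthest apart for NFKBIA and TNFAIP3.

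Several of the smaller calls did not hold under other settings or when 1 library was left out. The REL call at 12 h was made in 5 of 14 alternatives and ended under DESeq2 (adjusted p = 0.169) and with no filter on low counts (edgeR adjusted p = 0.105). The TNFAIP3 call at 12 h ended under DESeq2 (adjusted p = 0.0570). At 24 h the NFKBIZ call ended under DESeq2 (adjusted p = 0.105), with no filter (edgeR adjusted p = 0.191) and in the fit to that time point alone (0.100). The NFKBIE call at 24 h ended under DESeq2 (adjusted p = 0.0892), with no filter (edgeR adjusted p = 0.0835) and in the fit to that time point alone (0.0676), and the NFKB1 call under DESeq2 (adjusted p = 0.148). At 12 h the REL call ended without EMD37 A or B or vehicle A or B of that time, or without EMD37 A or B at 24 h (edgeR adjusted p = 0.0670 to 0.334), the TNFAIP3 call without any of the same 6 libraries (0.0605 to 0.301) and the NFKBIZ call without vehicle B at 12 h (0.0519), whereas without vehicle A or B at 24 h RELA, NFKBIA and NFKBIE gained calls (0.0157 to 0.0331). At 24 h the NFKBIZ call ended without any 1 of the 8 libraries (0.0546 to 0.233), the NFKB1 call without vehicle A, EMD37 A or EMD37 B at 24 h (0.0784 to 0.0983), the NFKBIE call without vehicle B, EMD37 A or EMD37 B at 24 h (0.0506 to 0.148), and the REL call without EMD37 B at 24 h (0.0822). RELB and NFKBIB were called in all 14 alternatives run at 12 h, and RELB, NFKBIB, NFKB2, RELA, NFKBIA and TNFAIP3 in all 15 run at 24 h.

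The effect of EMD37 was larger at 24 h than at 12 h for 4 of the 10 genes, RELB, NFKBIA, NFKBIB and TNFAIP3. This is the treatment by time interaction, in which 7.96% of tested genes were called higher. The difference of the log2 effects was 2.87 for TNFAIP3 (standard error 0.18, edgeR adjusted p = 6.60e-08) and 1.93 for NFKBIA (standard error 0.34, edgeR adjusted p = 0.00112). It was 0.85 for RELB (standard error 0.21, edgeR adjusted p = 0.0120) and 0.73 for NFKBIB (standard error 0.18, edgeR adjusted p = 0.0132). Among the other genes NFKB2 had 0.77 with a 95% interval of −0.04 to 1.58, RELA 0.31 with −0.06 to 0.68, and NFKBIZ −0.23 with −0.48 to 0.02. NFKB1 had 0.06 with −0.75 to 0.86, REL 0.01 with −0.43 to 0.44 and NFKBIE −0.03 with −0.40 to 0.35, and the interval of NFKB1 was the widest of these. The RELB call ended without vehicle A (edgeR adjusted p = 0.0573) or EMD37 A (0.0735) at 12 h, and the NFKBIB call without vehicle B (0.0841), EMD37 A (0.0541) or EMD37 B (0.0552) at 12 h or EMD37 B at 24 h (0.0584). Without vehicle B at 24 h, NFKB2 (0.0471) and RELA (0.0163) were also called.

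Within EMD37 cells, 5 genes were higher at 24 h than at 12 h and 1 was lower, where 15.5% of tested genes were called higher and 15.7% lower. TNFAIP3 rose by log2 2.63 (standard error 0.12), NFKBIA by 2.15 (0.20), NFKB2 by 0.91 (0.24), NFKBIB by 0.77 (0.12) and RELB by 0.68 (0.13), with edgeR adjusted p from 1.78e-10 to 0.00830. NFKBIZ fell by 0.25 (standard error 0.08, edgeR adjusted p = 0.0290). The NFKBIZ call ended without either EMD37 library of either time or either vehicle library at 12 h (edgeR adjusted p = 0.0631 to 0.246), and the NFKB2 call without EMD37 A (0.0628) or EMD37 B (0.0513) at 12 h. Under DESeq2 both calls ended, at adjusted p = 0.115 for NFKBIZ and 0.0535 for NFKB2; the NFKBIZ call also ended with no filter (edgeR adjusted p = 0.131) and with recovered reads (0.0651). This comparison and the drug effects share the EMD37 libraries.

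In vehicle cells none of the 10 genes was called between 24 h and 12 h by edgeR, and 0 had an unadjusted p below 0.05. Over all tested genes edgeR called 5.99% in either direction. DESeq2 also called 0 of the 10, but it gave no adjusted p for NFKB1, NFKB2 and NFKBIA and so could not call them. The log2 differences ran from −0.25 for TNFAIP3 (95% interval −0.54 to 0.05) to 0.22 for NFKBIA (−0.36 to 0.80). For NFKB1, NFKB2 and NFKBIA, which had few reads, the intervals reach past 0.7 in the upward direction, so a difference of that size lay within the error at this depth.

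Levels were set side by side as CPM per kilobase of the gene's merged exons. The places of NFKB1, NFKB2 and NFKBIA in these orders rest on the few reads counted for them, for which no source used here gave a reason, and that of REL on exons of which 43.3% are shared with another gene. In EMD37 at 24 h the order was TNFAIP3 (33.2), NFKBIB (21.3), NFKBIZ (12.7), RELA (12.7), NFKBIE (11.5), RELB (11.4), NFKBIA (9.06), NFKB2 (1.88), REL (1.56) and NFKB1 (0.887 CPM per kilobase). Here NFKBIZ and RELA overlapped in their 2 libraries, as did NFKBIE and RELB. In vehicle at 24 h it was NFKBIZ (10.9), NFKBIE (8.97), RELA (8.42), NFKBIB (7.88), TNFAIP3 (3.34), RELB (3.13), NFKBIA (1.34), REL (1.10), NFKB2 (0.668) and NFKB1 (0.527 CPM per kilobase). RELA overlapped both its neighbours there, and the pairs TNFAIP3 with RELB and NFKB2 with NFKB1 also overlapped. At 24 h TNFAIP3 stood first in drug-treated cells and behind 4 of the other genes in vehicle cells.

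At 12 h the order in EMD37 was NFKBIZ (15.1), NFKBIB (12.5), NFKBIE (12.0), RELA (10.96), RELB (7.10), TNFAIP3 (5.38), NFKBIA (2.03), REL (1.42), NFKB2 (1.00) and NFKB1 (0.743 CPM per kilobase). In vehicle it was NFKBIZ (11.04), NFKBIE (9.24), RELA (8.96), NFKBIB (7.59), TNFAIP3 (3.94), RELB (3.52), NFKBIA (1.13), REL (1.01), NFKB2 (0.596) and NFKB1 (0.462 CPM per kilobase). NFKBIE overlapped NFKBIB and RELA in EMD37 at 12 h, and in vehicle RELA overlapped NFKBIE and NFKBIB, and NFKBIA overlapped REL. The ratio of RELB to RELA per kilobase was 0.629 and 0.666 in the EMD37 libraries and 0.454 and 0.342 in the vehicle libraries at 12 h. At 24 h it was 0.900 and 0.903 in EMD37 and 0.421 and 0.334 in vehicle. The ratio was thus higher in drug-treated than in vehicle libraries at each time, without overlap between the groups. Its size depends on the merged exon lengths, 5464 bases for RELA and 3035 for RELB. It therefore does not show how near to equal the 2 transcripts, or their proteins, were.

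**Figure D4:**
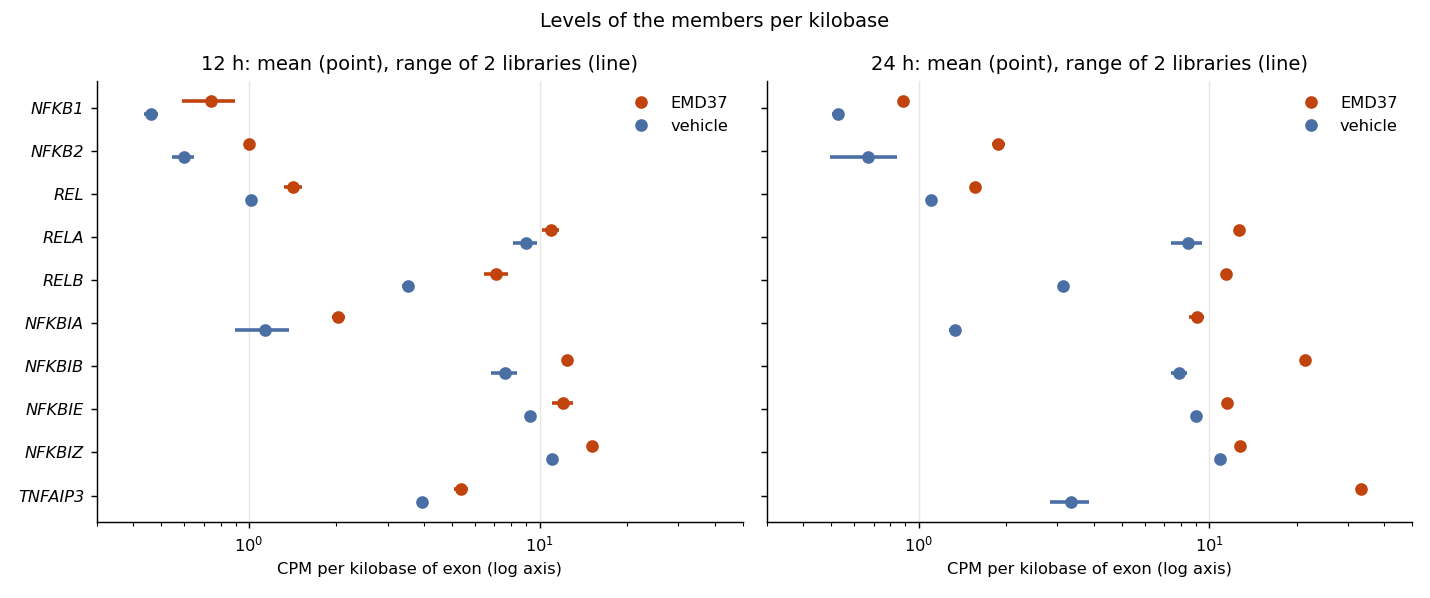
Mean CPM per kilobase of exon (points, log axis) with the range of the 2 libraries (lines) for each gene, EMD37 in orange above its vehicle in blue, at 12 h (left) and 24 h (right). TNFAIP3 is at 33.2 CPM per kilobase in EMD37 at 24 h and 3.34 in vehicle at 24 h, and NFKB1, NFKB2 and REL are the lowest at 24 h in EMD37.

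Across the 8 libraries the log2 CPM values of most of the 10 genes moved together, as a description over libraries that share the treatment and time groups. Pearson's r between pairs ran from 0.976 (NFKB2 with NFKBIB) down to 0.305 (NFKBIZ with TNFAIP3). Among genes averaging at least 5 CPM, those most like RELB were INHBA (r = 0.998), which encodes a subunit of activin, and TRAF1 (r = 0.996), an adaptor of the TNF receptor family. NFKBIB was most like TNIP1 (r = 0.997), which encodes an A20-binding protein, and the transcription factor gene MAFG (r = 0.995). TNFAIP3 was most like the lysosomal sialidase NEU1 (r = 0.996) and the galectin LGALS8 (r = 0.996). Correlations above 0.95 were held by 319 genes with TNFAIP3, 280 with NFKBIB and 266 with RELB. The genes named are therefore the top of long lists and not particular partners.

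The genes most like NFKBIZ were DNAJC3 (r = 0.992) and HERPUD1 (r = 0.991), both encoding proteins that act against ER stress. HERPUD1 had a log2 fold change of 3.88 at 12 h and 2.18 at 24 h, and DNAJC3 1.32 and 0.66. For NFKBIZ the difference between the 12 h and 24 h effects was not called (edgeR adjusted p = 0.200), and 47 genes correlated with it above 0.95. NFKBIA was most like RSRP1 (r = 0.994) and SSTR2 (r = 0.993), and NFKB2 like LONP1 (r = 0.994) and CRCP (r = 0.992). Above 0.95 there were 268 genes for NFKBIA and 140 for NFKB2. RELA was most like MAP4 (r = 0.989) and SMOX (r = 0.984), NFKB1 like CREB5 (r = 0.988) and MED23 (r = 0.963), REL like USO1 (r = 0.986) and NAA16 (r = 0.978), and NFKBIE like AARS1 (r = 0.980) and ZBTB21 (r = 0.973). Genes above 0.95 numbered 27 for RELA, 48 for REL, 12 for NFKBIE and 4 for NFKB1, whose values rest on few reads. All the genes named were picked as the highest of 10408 or 10409 candidates over 8 libraries, so they are a description only.

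The other genes of the pathway were read from lists by role. Over all tested genes 5.27% were called higher and 3.43% lower at 12 h, or 8.70% in either direction. At 24 h 19.6% were called higher and 21.1% lower, or 40.7% in either direction. Of 11 tested IkB relatives and nuclear modulators, 0 were called at 12 h and 1 was higher and 1 lower at 24 h. That is 18.2% called at 24 h, below the share over all tested genes. BCL3, a nuclear IkB protein that binds dimers of the NFKB1 and NFKB2 products, rose by log2 1.19 at 24 h (standard error 0.33, edgeR adjusted p = 0.00956), with 3.999 CPM in EMD37 and 1.76 CPM in vehicle. PDLIM2, which promotes RELA degradation, fell by 0.97 (standard error 0.27, edgeR adjusted p = 0.00918), with 2.51 CPM in EMD37 and 4.96 CPM in vehicle.

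Of 16 tested genes of the IKK complex and upstream kinases, 1 was higher at 12 h and 5 were higher and 1 lower at 24 h. In either direction 6.25% were called at 12 h and 37.5% at 24 h, beside 8.70% and 40.7% of all tested genes. The kinase gene IRAK2, of interleukin-1 and Toll-like receptor signalling, rose by log2 0.74 at 12 h (30.1 CPM in EMD37 and 17.9 CPM in vehicle) and by 2.47 at 24 h (89.0 CPM in EMD37 and 16.1 CPM in vehicle). TAB2 and TAB3, adaptors of the kinase TAK1, rose by 0.55 and 0.59 at 24 h. CHUK, which encodes IKK-alpha, had a log2 fold change of −0.23 at 12 h (edgeR adjusted p = 0.0979), not called.

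Of 21 tested adaptors and ubiquitin ligases, 3 were higher and 1 lower at 12 h, and 7 higher and 4 lower at 24 h. The share called in either direction was 19.0% at 12 h and 52.4% at 24 h, beside 8.70% and 40.7% of all tested genes. TRAF1 had 69.5 CPM in EMD37 and 19.3 CPM in vehicle at 12 h, and 146 CPM in EMD37 and 16.999 CPM in vehicle at 24 h. BIRC3, a ubiquitin ligase of the TNF receptor complex, had 346 CPM in EMD37 and 152 CPM in vehicle at 12 h, and 784 CPM in EMD37 and 144 CPM in vehicle at 24 h. RBCK1, a subunit of the linear ubiquitin ligase, rose by 0.71 at 24 h, and TRAF5 fell by 0.41 at 12 h.

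Of 14 tested A20 partners and other negative regulators, 3 were higher and 0 lower at 12 h, and 8 higher and 0 lower at 24 h. The share called was 21.4% at 12 h and 57.1% at 24 h, beside 8.70% and 40.7% of all tested genes. TNIP1 had 41.8 CPM in EMD37 and 20.4 CPM in vehicle at 12 h, and 85.8 CPM in EMD37 and 23.5 CPM in vehicle at 24 h, a rise of log2 1.02 (standard error 0.13) and 1.87 (standard error 0.13). TAX1BP1, another A20 adaptor, rose by 0.81 at 24 h and TOLLIP, a regulator of interleukin-1 receptor signalling, by 1.03. The deubiquitinase gene CYLD rose by 0.91 and the RNase gene ZC3H12A by 1.44 at 12 h.

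Of 16 tested receptors, 1 was higher and 1 lower at 12 h, and 5 higher and 1 lower at 24 h. In either direction 12.5% were called at 12 h and 37.5% at 24 h, beside 8.70% and 40.7% of all tested genes. TNFRSF10B, a death receptor for TRAIL, rose by 0.68 at 12 h and 0.76 at 24 h, and TLR2 rose by 1.88 at 24 h, with 28.3 CPM in EMD37 and 7.70 CPM in vehicle. TLR4 fell by 0.25 at 12 h and TNFRSF21 fell by 0.78 at 24 h. Only 3 of 10 ligand genes passed the filter on low counts: IL1A and IL1B rose at 12 h by 2.08 and 1.78, and IL1A rose at 24 h by 3.19, with 12.3 CPM in EMD37 and 1.35 CPM in vehicle.

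Of 21 tested textbook NF-kB targets outside the 10 genes, 9 were higher and 0 lower at 12 h, and 13 higher and 2 lower at 24 h. Their median log2 fold changes were 0.56 and 0.88. In either direction 42.9% were called at 12 h and 71.4% at 24 h, beside 8.70% and 40.7% of all tested genes. The list was chosen with earlier results of these data known, so these shares are a description and not independent support. The chemokine gene CXCL8 had 331 CPM in EMD37 and 25.1 CPM in vehicle at 12 h, and 411 CPM in EMD37 and 19.2 CPM in vehicle at 24 h. The cytokine gene IL6 had 51.7 CPM in EMD37 and 6.80 CPM in vehicle at 12 h, and 224 CPM in EMD37 and 9.62 CPM in vehicle at 24 h. Over the 81 tested genes of the lists without members and targets, 10 were higher and 2 lower at 12 h. At 24 h 27 were higher and 7 lower, and the medians at the 2 times were 0.07 and 0.17. In either direction 14.8% of these 81 were called at 12 h, beside 8.70% of all tested genes. At 24 h 42.0% were called, near the 40.7% of all tested genes.

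**Figure D5:**
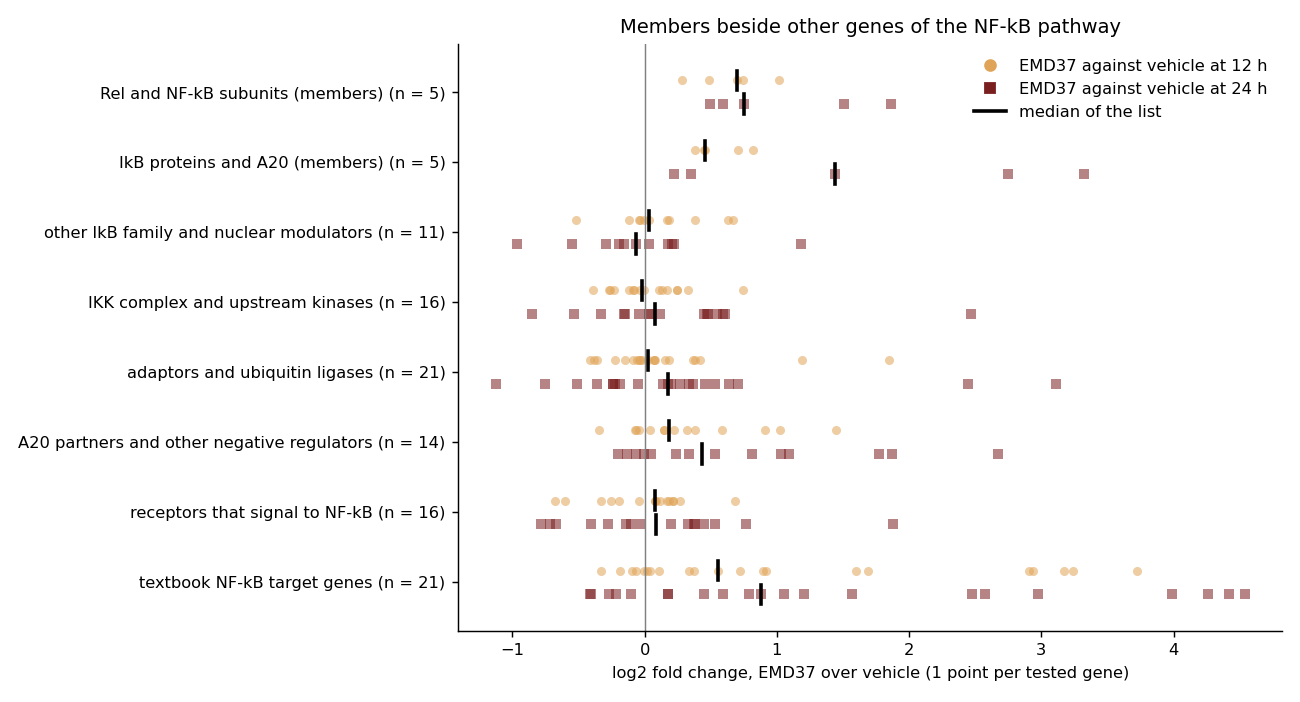
Log2 fold change of EMD37 over vehicle for each tested gene of the member groups and of the pathway lists, at 12 h (light circles) and 24 h (dark squares), with the list median (black bar); the ligand list, with 3 tested genes, is not drawn. All points of the members lie above 0, while the other lists, apart from the target genes, have medians between −0.07 and 0.44.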

How the data were processed

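Total RNA entered the TruSeq V2 kit, an unstranded method, per the labels' protocols. The submitters' processing notes name FastQC, STAR, DESeq2 and build hg38; their versions and roles, and what counted the reads, are not stated in those notes or the labels. The authors deposited raw read counts per Ensembl gene, and all tests used these. Their deposited normalized values (signal) equal the raw reads over a size factor for each library. The count table as held here ended part-way through the Ensembl IDs, at 36715 genes. Reads of 6912 further genes were recovered from the normalized table (55296 of 55296 values whole within 0.01) and entered 1 alternative only.

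Names, positions and exon lengths came from GENCODE 29. In edgeR 4.0.16 under R 4.3.3, filterByExpr (minimum count 10) kept 14850 genes. TMM factors and a model with 1 mean per group over all 8 libraries (4 residual degrees of freedom) gave 5 contrasts, tested by quasi-likelihood with Benjamini-Hochberg adjustment over all tested genes (threshold 0.05). The fit was run on simulated counts with known changes. These had the same dispersion in every gene and group, so unequal spread between groups was not tested. Counts of 3 or fewer were taken as the floor, and no member was at it. Alternatives were RLE size factors, DESeq2 1.42.0, no filter, a replicate block, recovered reads, each library left out in turn, and a fit per time point; a crossed replicate block was added after seeing the data.

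The genes named are the 10 members in every comparison, genes among the 3 with the smallest p of each pathway list at 12 h and at 24 h, and the 2 genes most correlated with each member. The members and lists were chosen with earlier results of these data known. Matches to promoters used RefSeq windows on GRCh38.p14.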

Additional observations from a re-analysis of the deposited data

Results flagged for a closer look

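The effect of EMD37 on 4 of the 10 genes differed between the times, by a test of the difference itself (edgeR's quasi-likelihood test of the treatment by time interaction, Benjamini-Hochberg adjustment). The same test called 15.9% of all 14850 tested genes, 1182 of them higher and 1179 lower. The log2 effect at 24 h minus that at 12 h was 2.87 for TNFAIP3 (3.32 at 24 h and 0.45 at 12 h), and 1.93 for NFKBIA (2.75 at 24 h and 0.82 at 12 h). It was 0.85 for RELB (1.86 at 24 h and 1.01 at 12 h) and 0.73 for NFKBIB (1.44 at 24 h and 0.71 at 12 h). For TNFAIP3 and NFKBIA the call was made in all 13 alternatives, with differences of 2.69 to 3.11 and 1.60 to 2.19. For RELB it was made in 11 of 13 and for NFKBIB in 9 of 13. Both drug libraries at 24 h lay above both at 12 h for 6 of the 10 genes. These were the 4 genes and also NFKB2 and RELA, which had no interaction call. The 4 genes were picked by a test on the same libraries, so their separation adds no support. The share of all tested genes separated in this way is not given here.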

How the results depend on the processing

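No direction of a called value turned round under any alternative run. At 12 h 5 members were called higher; DESeq2 gave 3, the fit to the libraries of that time point alone 8, and leaving out 1 library 2 to 8. Within EMD37 cells at 24 h against 12 h 5 were higher, and 4 under DESeq2. Against vehicle at 24 h 10 were higher; leaving out 1 library gave 6 to 9, with 6 without EMD37 B at 24 h, and DESeq2 gave 7. The interaction had 4, and 2 to 6 with 1 library left out. The 1 member lower in EMD37 cells at 24 h against 12 h, NFKBIZ, was 0 by DESeq2, with no filter and with recovered reads, and 0 to 1 with 1 library left out. NFKBIZ at 24 h against vehicle was called in 3 of 15 alternatives. Where 1 library was left out, the other of its group was assumed to vary like the remaining groups. The counts over all genes moved too. At 12 h 782 of 14850 tested genes were called higher, and DESeq2 called 597 of 12275 given an adjusted p. The fit to that time point alone called 1394 of 14126. At 24 h 2916 of 14850 were called higher, and 2314 of 14660 under DESeq2. Within EMD37 cells 2297 of 14850 were called higher, and 1762 of 12871 under DESeq2. The cause of these moves was not tested.

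The letters A and B were not shown to pair libraries: deviations of A from its group mean correlated at −0.133 to 0.130 between groups. With a replicate block 4 members were higher at 12 h and 9 at 24 h, the calls of REL at 12 h (edgeR adjusted p = 0.0622) and NFKBIZ at 24 h (0.0630) being the 2 that ended. With the letters of the 2 EMD37 libraries at 24 h exchanged the block gave 10 at 24 h. Over all 14850 tested genes the block called 705 higher at 12 h and 2858 at 24 h. With the letters exchanged it called 3243 higher at 24 h. Depth limits NFKB1, NFKB2 and NFKBIA most, since their lowest libraries held 30, 24 and 21 reads, with 95% counting intervals of 20.2 to 42.8, 15.4 to 35.7 and 12.999 to 32.1.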

Other observations

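Reads recovered from the normalized table gave values for 4 pathway genes beyond the end of the count table. IKBKG, the regulatory subunit of the IKK complex, had a log2 fold change of −0.26 at 12 h (standard error 0.33, edgeR adjusted p = 0.726) and rose by 2.16 at 24 h (standard error 0.34, edgeR adjusted p = 4.30e-05), at a mean of 3.21 CPM over the 8 libraries. A near-identical partial copy of IKBKG exists in the genome, so this value is uncertain. IKBKE rose by 0.40 (edgeR adjusted p = 0.0408) and UBE2V1 by 0.42 (edgeR adjusted p = 0.0269) at 24 h, and OTUD7B had 0.19 (edgeR adjusted p = 0.0743).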
